A study of Homo sapiens with 4 samples.

Results

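The mitochondrial ribosomal protein genes that stand outside the 14 such genes named or meant in the study's own account were examined in H1299 cells, a human cell line derived from a non-small-cell lung carcinoma. Members were chosen by symbol: protein-coding genes whose symbol starts with MRPL or MRPS and a digit, without those 14 genes. The genes left out had been picked on these samples, so the members are not a random part of the family. This gave 64 member genes with 415 listed transcripts, out of 19926 protein-coding genes and 227368 transcripts in the count table; 44 genes carry names of the large subunit and 20 of the small subunit. Poly-A RNA was sequenced after 48 h from cells treated with 5 μM HgCl2 and from control cells given the solvent, EtOH. The titles of the deposited samples name the groups EtOH and HgCl2, the treatment entry of the control samples reads wild type, and the shared treatment text, which gives the same HgCl2 dose for all samples, was not followed for the control samples. All cells came from this single line, and the labels describe no separate cultures, although the study's text calls the replicates independent.

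Each group has 2 columns, labelled as replicates 1 and 2, with 4720978 to 5053120 counts per column. Within each group the columns lay closer together than sampling noise allows for independent libraries: the variance between them was 0.504 times that of independent draws in EtOH, over 12382 transcripts, and 0.516 times in HgCl2, over 10611 transcripts. Each group was therefore counted as 1 sample, and no p-value is given. The error given is a 95% Clopper-Pearson interval computed on mean counts; it covers counting alone and not the spread between cultures. In bulk RNA, fewer cells with a transcript and less of it per cell cannot be told apart. Fold changes are on the log2 scale, HgCl2 over EtOH, over 17547 tested transcripts with a mean FPKM, a count scaled by transcript length and library size, above 1 in a group. A transcript was called higher or lower where it differed by at least 2-fold and its interval excluded no difference. Other scalings of the libraries moved every fold change by between -0.17 and 0.18, so differences of that size have no certain direction, while shares within a library do not depend on scaling. The cells showed VIM, with 501 to 628 counts, and KRT18, with 18 to 31. Of the markers of other cells, PTPRC (leukocyte) was at 0 in every column, but the others had counts. PECAM1 (endothelium) had 5 and 4 counts in EtOH and 1 and 2 in HgCl2, and COL1A1 (fibroblast) had 13 and 18 against 3 and 4. KRT8 had 53 and 58 counts in EtOH and 4 and 4 in HgCl2.

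Mitochondria have their own ribosome, which translates the few mRNAs of the mitochondrial genome into subunits of the respiratory chain and the ATP synthase. Its RNAs are encoded in the mitochondrion, whereas all its proteins are encoded in the nucleus, made in the cytosol and imported. The small subunit holds the mRNA and reads its codons; the large subunit joins the amino acids and releases the growing chain at the inner membrane. Some of its proteins have counterparts in the bacterial ribosome and others are found only in mitochondria. Names do not always give the place of a protein: MRPS30 sits in the large subunit of the assembled ribosome, and MRPS36 is known as a component of the 2-oxoglutarate dehydrogenase complex.

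Which members could be measured was examined first. Of the 64 genes, 51 had at least 1 count, 33 of the large and 18 of the small subunit, and 24 genes, 12 of each, had a mean of at least 30 counts. The 13 genes at 0 in every column were MRPL12, MRPL18, MRPL21, MRPL23, MRPL28, MRPL36, MRPL38, MRPL42, MRPL53, MRPL54, MRPL55, MRPS2 and MRPS34. A count of 0 allows up to 3 counts per column. MRPL12 is a protein of the stalk that binds translation factors, and MRPL18, MRPL38 and MRPL55 belong to the central protuberance of the large subunit. The other 2 stalk proteins were also low, with 2 to 6 counts per column for MRPL11 and 6 to 12 for MRPL10. Low values were thus widespread among the members, and 16 further genes with counts had no transcript that passed the expression filter; the highest mean among those was 11.5 counts.

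The canonical transcripts of the genes at 0 were rich in G and C, short and poor in own bases. Own bases are those that no other transcript of the same strand shares. The canonical transcripts of the 13 genes at 0 had a median of 59.7% G and C, against 51.5% for the 27 genes with fewer than 30 counts and 44.5% for the 24 genes with at least 30. Of the 18 members above 55% G and C, 9 were at 0 and 0 had 30 counts or more, whereas of the 13 members between 40 and 45%, 0 were at 0 and 10 had at least 30 counts. The same gradient was present in all genes. Among canonical coding transcripts with at least 500 bases that no other transcript shares on their strand, 76.6% had a count at up to 40% G and C, 50.8% between 50 and 55%, and 40.2% above 55%. Base composition and length moved together, since the median length was 970 bases for the genes at 0 and 1808 bases for those with at least 30 counts. The 27 genes with fewer than 30 counts, at 1074 bases, were close to the genes at 0. Own bases moved with them too: the canonical transcript had a median of 0 own bases in the 13 genes at 0, with none at all in 7, against 730.5 in the genes with at least 30 counts. In the 27 genes with fewer than 30 counts the median was 5, with none in 10, so this was not particular to the genes at 0. Over all transcripts of a gene, the median was 788 own bases for the genes at 0 and 1138 for the genes with a count. Counts on transcripts with no own base were rare, at 1.1% of such transcripts in the whole table. MRPL42, at 0 with 38.3% G and C, has a canonical transcript with 0 own bases. In some genes with counts, such as MRPL27, the canonical transcript was itself at 0. Its base composition is then not that of the counted transcript. The separate parts of base composition, length and own bases in the counts of the members were not tested.

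The end of the coding sequence shows the contrast in base composition. The last 120 coding bases before the stop codon, from GENCODE 44 on GRCh38, are printed for the members with the most counts of each subunit, MRPS10 at chr6:42206807-42217861 (minus strand) and MRPL50 at chr9:101387633-101398618 (minus strand), and for MRPL12, a member at 0 counts, at chr17:81703367-81707517 (plus strand), whose only transcript has 308 own bases. Capitals mark G and C, which make up 40.8%, 38.3% and 62.5% of these stretches, and 41.8%, 43.7% and 60.8% of the whole coding sequences.
MRPS10: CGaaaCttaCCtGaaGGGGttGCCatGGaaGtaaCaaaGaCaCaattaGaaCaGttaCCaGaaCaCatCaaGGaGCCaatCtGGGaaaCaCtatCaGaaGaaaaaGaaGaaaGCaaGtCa
MRPL50: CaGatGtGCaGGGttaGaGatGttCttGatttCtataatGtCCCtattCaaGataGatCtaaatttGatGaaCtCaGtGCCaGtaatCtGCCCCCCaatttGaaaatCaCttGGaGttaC
MRPL12: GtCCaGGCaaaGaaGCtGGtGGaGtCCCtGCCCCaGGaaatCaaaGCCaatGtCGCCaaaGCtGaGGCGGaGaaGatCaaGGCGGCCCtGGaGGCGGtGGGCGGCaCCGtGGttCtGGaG

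**Figure D1:**
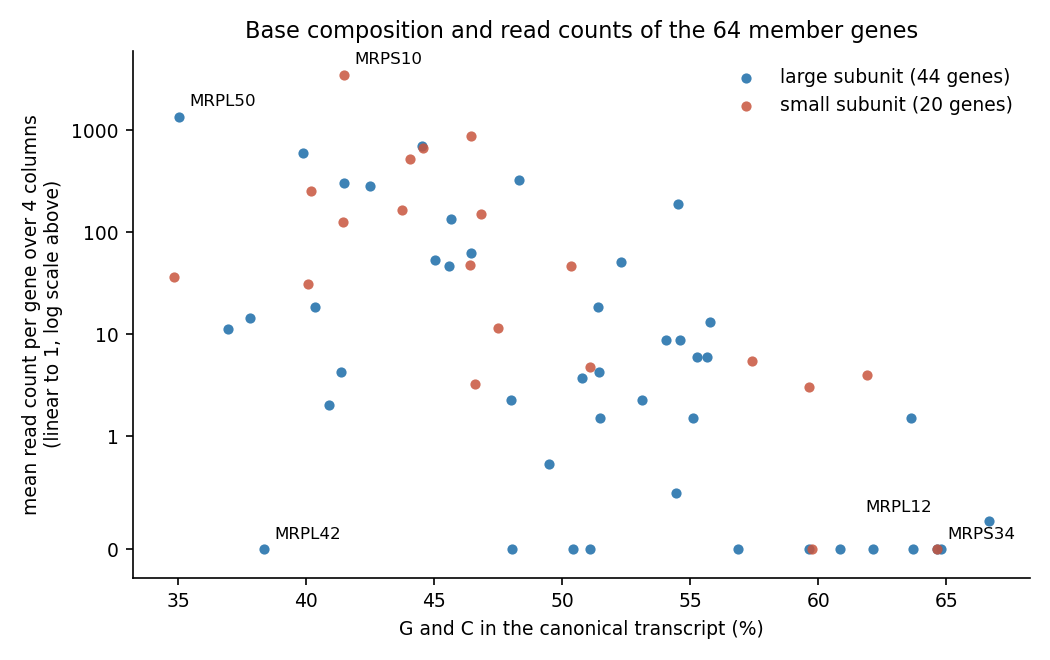
Mean read count per gene over the 4 columns (linear up to 1, log scale above) against the percentage of G and C in the canonical transcript for the 64 member genes, large subunit in blue and small subunit in red. All 18 genes above 55% lie below 30 counts, and MRPL42 is at 0 at 38.3%. Some counted genes, such as MRPL27 at 54.5%, have their counts on a transcript other than the canonical one.

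Few genes held most of the counts. All members together had 10590 and 10543 counts in EtOH and 10765 and 10788 in HgCl2, or 0.209% and 0.228% of the library counts. MRPS10, a small-subunit protein with a bacterial counterpart, had 2984 and 2949 counts in EtOH and 4031 and 3952 in HgCl2. It made up 28.1% of the member counts (interval 27.2 to 28.9%) in EtOH and 37.0% (36.1 to 38.0%) in HgCl2. MRPL50, found only in mitochondrial ribosomes, was next, with 1566 and 1508 counts in EtOH and 1175 and 1185 in HgCl2, and its share went from 14.5% (13.9 to 15.2%) to 10.9% (10.4 to 11.6%). The columns of the groups did not overlap for either gene, but gaps between the groups were wide in general. Over 11962 transcripts, the variance between EtOH replicate 1 and HgCl2 replicate 1 was 31.8 times that of independent draws. Over 36 member transcripts it was 14.8 times (interval 9.8 to 25.0). The share of transcripts whose columns do not overlap was not counted, so a lack of overlap is not read as setting these genes apart. The 5 genes with the most counts held 65.0% of the member counts in EtOH and 67.9% in HgCl2. Per kilobase of bases that no other transcript shares, the value in EtOH was 1413 counts for MRPS10, 496 for MRPS9, 472 for MRPL44, 461 for MRPL50, 289 for MRPS35, 252 for MRPL51 and 250 for MRPL35. The value of MRPS35 rests on 29.5 counts over 102 own bases. These bases were summed over all transcripts of a gene, also those without counts, so the values do not rank the genes by level.

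**Figure D2:**
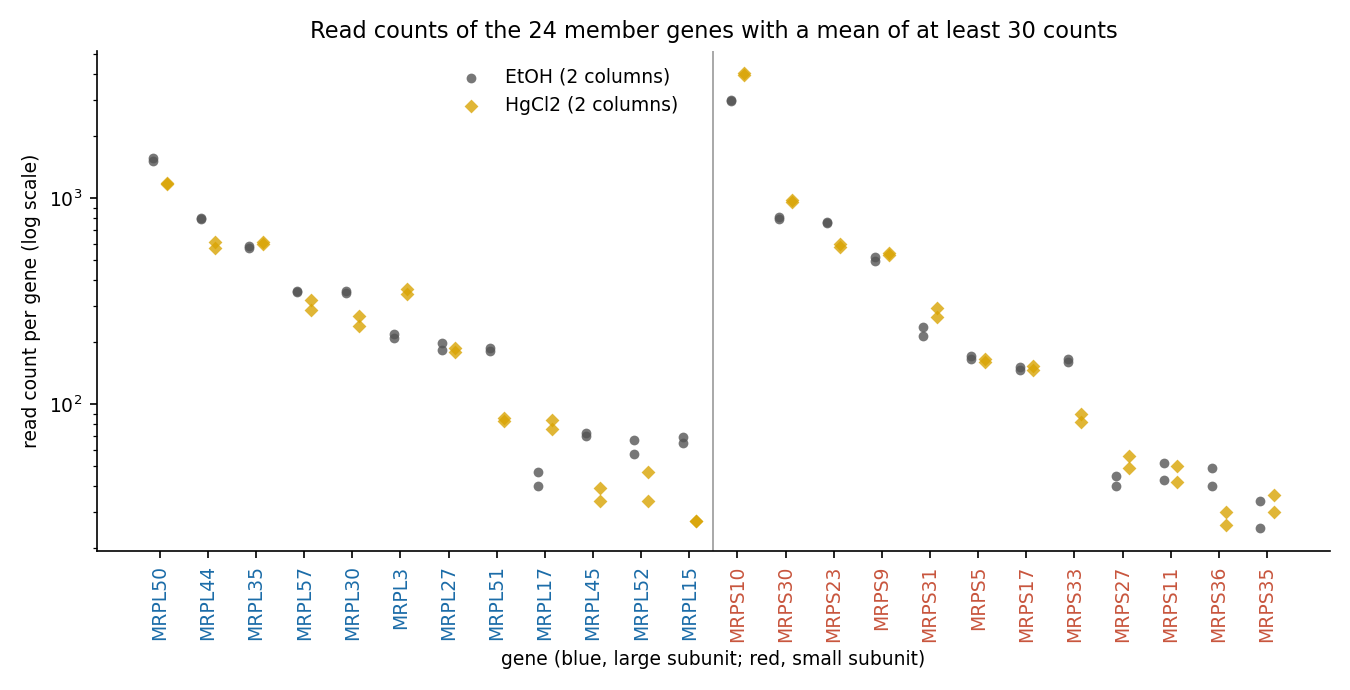
Read counts per gene (log scale) in the 2 EtOH columns (grey circles) and the 2 HgCl2 columns (yellow diamonds) for the 24 member genes with a mean of at least 30 counts, ordered by count within the large (blue) and small (red) subunit. Counts are not scaled for library size. MRPS10 is the highest, with 2966.5 counts on average in EtOH and 3991.5 in HgCl2, and MRPL51, MRPL45 and MRPL15 show the HgCl2 columns well below the EtOH columns.

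The large and the small subunit were then compared. Small-subunit genes held 56.2% and 56.7% of the member counts of the EtOH group and 65.1% and 63.5% of those of HgCl2, column by column. The pooled shares were 56.4% (55.5 to 57.4%) and 64.3% (63.4 to 65.2%), a difference of 7.88 percentage points that the counting intervals leave clear. Without MRPS10 the shares were 39.4% (38.3 to 40.5%) and 43.3% (42.1 to 44.5%), so the difference became 3.90 points. With MRPS30 counted in the large subunit they were 48.8% and 55.3%, a difference of 6.49 points. The 2 alternatives were chosen after seeing the data. Both subunits were sums over unequal genes, and the small-subunit sum is led by MRPS10. The sums also leave out the genes of the study's account. Among those, the most counted large-subunit transcript, of MRPL19, averaged 2187.5 counts in EtOH and 3024.5 in HgCl2. The most counted small-subunit transcript, of MRPS15, averaged 462.0 and 180.5. Both moved against the member sum of their subunit, while others went either way. The share with these genes added was not computed, so the difference describes the members alone.

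Among tested transcripts, 3 of the 52 member transcripts were called higher and 5 lower, or 15.4%. Of all tested transcripts, 15.5% were called higher and 17.0% lower, 32.5% in all. The members leave out the genes that the study's account gives as higher or lower in these samples. Of the 27 tested transcripts of the left-out genes, 59.3% were called. The low share among members is thus in part a result of the selection. It is not read as a property of mitochondrial ribosomal protein genes. Where the mean reached 30 counts, 3 of 28 members were called, against 25.0% of all such transcripts. By fold alone, 17 member transcripts were at least 2-fold lower and 3 at least 2-fold higher, where 34.1% and 19.2% of all tested transcripts were. Summed per gene, 2 of 35 tested member genes were called higher, MRPL17 and MRPL22, and 3 lower, MRPL1, MRPL15 and MRPS24, beside 12.0% and 17.6% of all tested genes, 29.6% in all. MRPL22 and MRPS24 had all their counts on a retained intron, so their calls do not describe coding mRNA. MRPL1 had 17 and 17 counts in EtOH and 5 and 6 in HgCl2, at -1.46 (-3.19 to -0.03), with no transcript called on its own. The median log2 fold change of the member transcripts was -0.26, beside -0.21 for all tested transcripts. It was -0.67 for the 27 large-subunit transcripts and 0.07 for the 25 small-subunit transcripts, a difference of -0.73. With MRPS30 in the large subunit the difference was -0.39. Setting groups at or under 3 counts to 3 counts also gave -0.39. With at least 30 counts the median was -0.29 for 13 large-subunit and 0.24 for 15 small-subunit transcripts, beside 0.21 for all such transcripts. In that class 9 of the 13 large-subunit transcripts lay below 0 and 11 of the 15 small-subunit transcripts above it, where 38.9% of all such transcripts lay below and 61.1% above. The small-subunit median and count were thus near those of all such transcripts. Summed per gene, 8 of the 12 large-subunit genes with at least 30 counts were below 0 and 9 of the 12 small-subunit genes above, beside 40.9% below and 59.1% above among all such genes. Over protein-coding transcripts alone the subunits were closer, with medians of -0.31 and -0.08. The members are not replicates of the subunit, so these medians describe the measured transcripts.

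**Figure D3:**
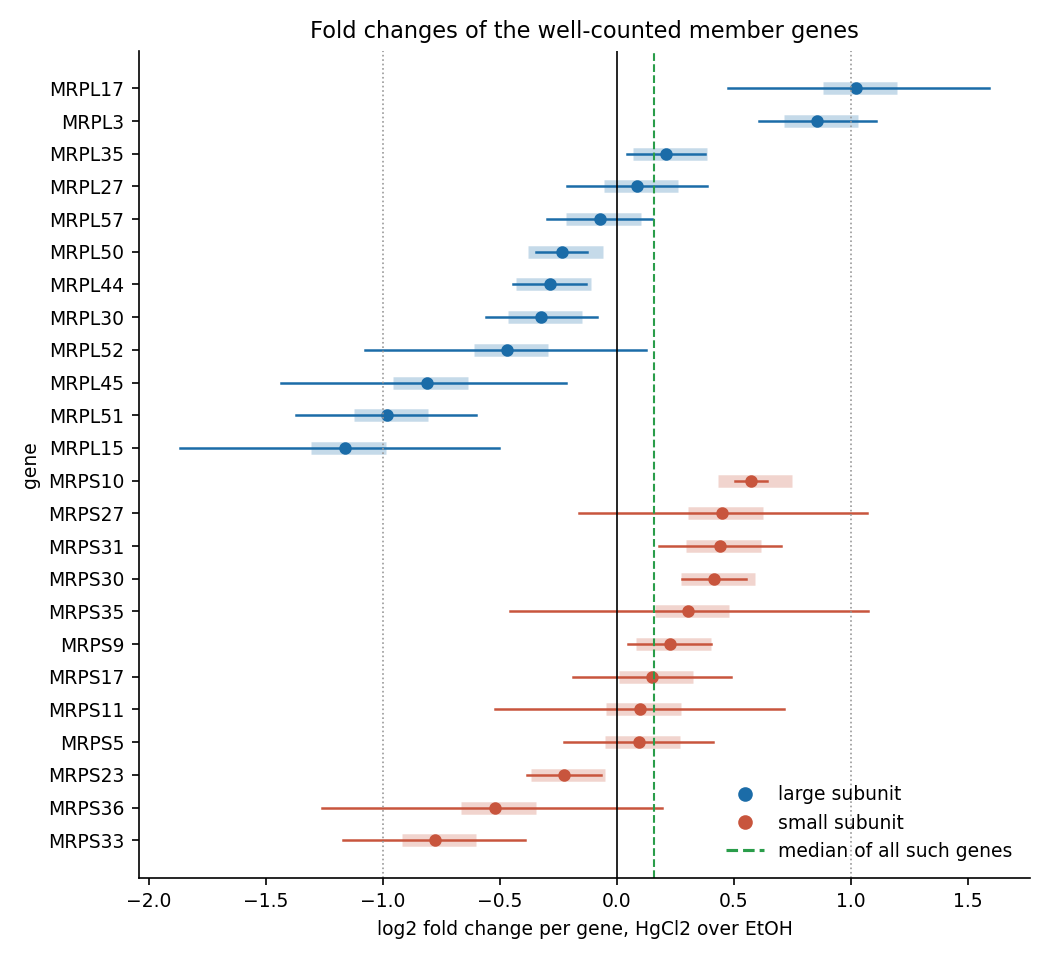
Log2 fold change per gene, HgCl2 over EtOH, for the 24 member genes with at least 30 counts; points are the estimates, thin lines the 95% counting intervals and pale bars the range over library scalings. Most blue points (large subunit) lie to the left of 0 and most red points (small subunit) to the right, MRPL17 and MRPL15 are past the dotted 2-fold lines, and the green dashed line is the median of all such genes, 0.16.

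In the large subunit, MRPL17, the counterpart of bacterial L17, was called higher. Its coding transcript had 47 and 40 counts in EtOH and 83 and 76 in HgCl2, a log2 fold change of 1.01 (interval 0.46 to 1.58). The value was close to the threshold, and the call was lost under several alternatives. MRPL3, which reaches toward the peptidyl transferase centre, had 212 and 206 counts in EtOH and 339 and 358 in HgCl2. With 0.88 (0.63 to 1.13) it was the largest positive value among the large-subunit transcripts with over 100 counts, below the 2-fold threshold; without the filter it was 1.02, and with limma 1.03 and 1.05.

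Some members of the large subunit lie near the exit of the nascent chain. MRPL22 lines the exit tunnel, and MRPL24, MRPL44 and MRPL45 lie around its outer end, where MRPL45 faces the inner membrane. MRPL45 had 70 and 72 counts in EtOH and 34 and 39 in HgCl2, a value of -0.81 (-1.43 to -0.22). MRPL44 had 802 and 791 counts against 571 and 610, or -0.29 (-0.44 to -0.13). MRPL24 had 11 and 14 counts against 6 and 3, too few to tell apart from no difference. MRPL47, also of this region, had 14 and 12 counts against 14 and 17, at 0.40 as a gene (-0.76 to 1.58). Of the 5 tested transcripts of this region, 1 was called higher and 0 lower, beside 15.5% and 17.0% of all tested transcripts. The called one is a retained intron of MRPL22, ENST00000520040, and not a coding mRNA.

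Of the 9 tested transcripts of large-subunit proteins without a bacterial counterpart, from 7 genes, 8 lay below 0, and 1 was called lower. In all, 19 of the 27 large-subunit transcripts and 55.7% of all tested transcripts lay below 0, and the median of -0.67 was that of the whole large subunit. Summed per gene, the median over the 7 genes was -0.47. MRPL51 has a pair of coding transcripts that split its counts. The shorter, ENST00000543164, had 88 and 107 counts in EtOH and 37 and 47 in HgCl2 and was called lower at -1.07 (-1.63 to -0.54). It fell short of 2-fold without EtOH replicate 2 (-0.92), without HgCl2 replicate 1 (-0.91), without the filter (-0.93) and with limma (-0.84 and -0.89). The bases it shares with no other transcript of its strand lie opposite NCAPD2, a gene of the other strand, and the counting options are not given. The canonical transcript had 94 and 80 against 46 and 39, at -0.89 (-1.46 to -0.35), and each transcript held near 50% of the gene in both groups, at 52.9% and 49.7% for the shorter. MRPL50 gave -0.24 (-0.35 to -0.13). MRPL57 had 351 and 354 counts in EtOH and 285 and 321 in HgCl2, and its value of -0.07 changes sign between scalings.

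MRPL15, a counterpart of bacterial L15, was also called lower. It had 64 and 69 counts in EtOH and 27 and 27 in HgCl2, at -1.15 (-1.86 to -0.49). With limma it fell short of 2-fold (-0.81 and -0.96). Of the remaining well-counted large-subunit genes, MRPL35 had 586 and 574 counts against 600 and 615, at 0.21 (0.04 to 0.38). MRPL30 had 348 and 356 against 240 and 269, at -0.32 (-0.56 to -0.09). MRPL27, of the central protuberance, had 184 and 197 against 179 and 188 in ENST00000442592, at 0.09 with a sign that depends on the scaling. The canonical transcript of MRPL27 has 0 own bases and was at 0 in every column. ENST00000442592, a coding transcript, was the only tested transcript of the 7 protuberance genes, 3 of which were at 0.

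In the small subunit, 0 of the 15 tested transcripts that averaged 30 counts or more were called. MRPS10 gave 0.57 (0.50 to 0.64). MRPS30, named for the small but placed in the large subunit, had 570 and 588 counts in EtOH and 756 and 763 in HgCl2 in ENST00000230914, a transcript with no defined coding sequence, at 0.54 (0.38 to 0.69). Its coding transcript, ENST00000507110, had 223 and 218 counts against 219 and 198, at 0.06 (-0.22 to 0.34), and its share of the tested counts of the gene went from 27.6% (24.5 to 30.8%) to 21.5% (19 to 24.3%). MRPS9, a counterpart of bacterial S9, had 489 and 509 counts against 540 and 527, at 0.24 (0.06 to 0.42). The tested transcripts of small-subunit genes with a bacterial counterpart had a median of 0.12 over 12, and those without one a median of -0.48 over 10. Summed per gene, the medians were 0.12 and 0.04 over 6 genes each, a smaller contrast than between transcripts.

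Among the small-subunit proteins found only in mitochondria, values went both ways. MRPS23 had 753 and 755 counts in EtOH and 598 and 578 in HgCl2, at -0.22 (-0.37 to -0.06). MRPS33 had 155 and 162 counts against 90 and 82, at -0.74 (-1.14 to -0.35), the lowest value of the well-counted small-subunit transcripts. The canonical transcript of MRPS31 had 207 and 221 against 249 and 225, at 0.29 (0.02 to 0.56). MRPS5, with a bacterial counterpart, had 172 and 166 counts as a gene in EtOH and 161 and 165 in HgCl2, and its most counted transcript, a retained intron whose length differs between annotation releases, gave 0.10 with a sign that depends on the scaling. MRPS36, with 49 and 40 counts against 30 and 26, gave -0.52 (-1.26 to 0.19), an interval that includes no difference.

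Some members differed in which of their transcripts carried the counts. Reads were counted on transcripts, and 98.8% of the member counts lay on the 114 transcripts with at least 150 bases of their own, whereas 177 transcripts share every base with another and 3 of these had a count. ENST00000498078 of MRPS31, whose first exon begins within an intron of the canonical transcript, had 7 and 15 counts in EtOH and 43 and 39 in HgCl2. It was called higher at 2.03 (1.06 to 3.15), or 2.67 without EtOH replicate 2 and 1.59 without EtOH replicate 1, and its share of the tested counts of the gene went from 4.89% (2.47 to 8.58%) to 14.8% (10.8 to 19.5%). ENST00000520040 of MRPL22, which retains an intron, had 9 and 11 counts in EtOH and 26 and 27 in HgCl2, at 1.54 (0.45 to 2.76), and no other transcript of that gene had a count. It passed the expression filter through HgCl2 alone, with a mean FPKM of 0.78 in EtOH and 2.57 in HgCl2. Its call is therefore not independent of the filter. Counts on either transcript do not show a change in the protein-coding mRNA of the gene.

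The edges of these introns are shown as a place, not the only one, where the transcripts depart from the spliced mRNA. For MRPL22 the intron is 698 of 1870 own bases, so counts need not lie in it. For MRPL22 the stretch is chr5:154956417-154956476 on the plus strand of GRCh38, the last 20 exon bases and the first 40 of the 698 bases of intron that the transcript keeps. For MRPS31 it is chr13:40749262-40749321, read on the minus strand, with the last 40 bases of the intron and the first 20 of the next exon; this transcript begins 332 bases upstream of that exon and reads through. Capitals mark the GT and AG at the intron ends.
MRPL22: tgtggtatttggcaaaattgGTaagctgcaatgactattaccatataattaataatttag
MRPS31: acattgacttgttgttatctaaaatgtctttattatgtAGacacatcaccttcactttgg

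Other transcripts had few counts. ENST00000515226 of MRPS27, a retained intron, had 30 and 27 counts in EtOH and 52 and 47 in HgCl2. Its share of the tested counts of the gene was 75.0% (58.3 to 87.6%) and 98% (89.5 to 99.95%). The coding transcript of MRPS11 had 55.6% (40 to 70.4%) and 79.5% (64.7 to 90.2%) of the tested counts of its gene, with overlapping intervals. ENST00000559557 of MRPS11, a retained intron, went from 10 and 11 counts to 0 and 0, at least 3.17-fold lower. ENST00000414932 of MRPS24, also a retained intron and the only counted transcript of that gene, went from 11 and 10 counts to 1 and 0, again at least 3.17-fold lower. ENST00000578444 of MRPS23, a minor coding transcript, had 6 and 6 counts in EtOH and 0 in HgCl2, at least 1.81-fold lower. ENST00000559557 and ENST00000578444, at 0 in HgCl2, passed the expression filter through EtOH alone. Their calls are therefore not independent of the filter. Of the 15 tested retained introns of members, 1 was called higher and 2 lower, or 3 of 15, against 36.7% of all tested retained introns.

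**Figure D4:**
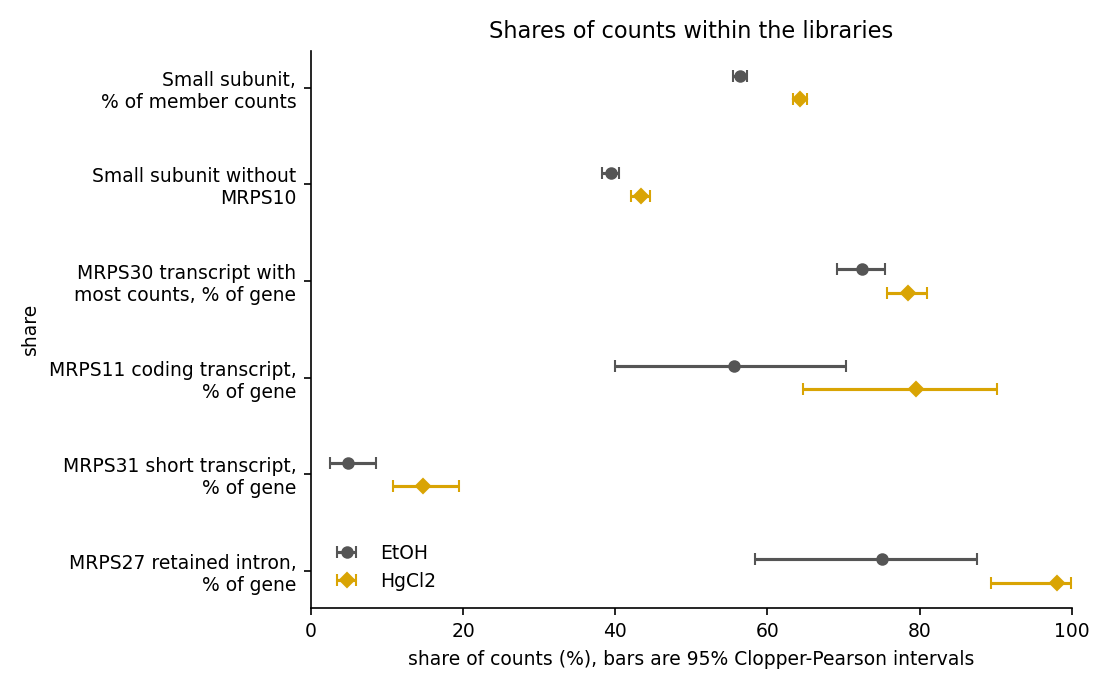
Shares of counts in EtOH (grey circles) and HgCl2 (yellow diamonds) with 95% Clopper-Pearson intervals: the small subunit among all member counts, with and without MRPS10, and single transcripts among the tested counts of their gene. The small-subunit share went from 56.4% to 64.3%, and the short MRPS31 transcript from 4.89% to 14.8%; the MRPS11 intervals overlap.

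Fold changes also moved with base composition across all genes. Among tested transcripts with at least 30 counts the median log2 fold change was 0.37 at up to 40% G and C, 0.21 between 40 and 45%, 0.07 between 45 and 50%, -0.12 between 50 and 55% and -0.23 above 55%. The well-counted large-subunit transcripts had a median of 44.9% G and C and the small-subunit ones 43.3%. Within the class from 40 to 45%, the median was -0.29 for 5 large-subunit and 0.24 for 9 small-subunit transcripts; between 45 and 50% it was -0.81 for 5 and 0.15 for 3. Taken relative to the median of their own class, which was chosen after the values were seen, the large-subunit median was -0.54 and the small-subunit median 0.07, a difference of -0.61.

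**Figure D5:**
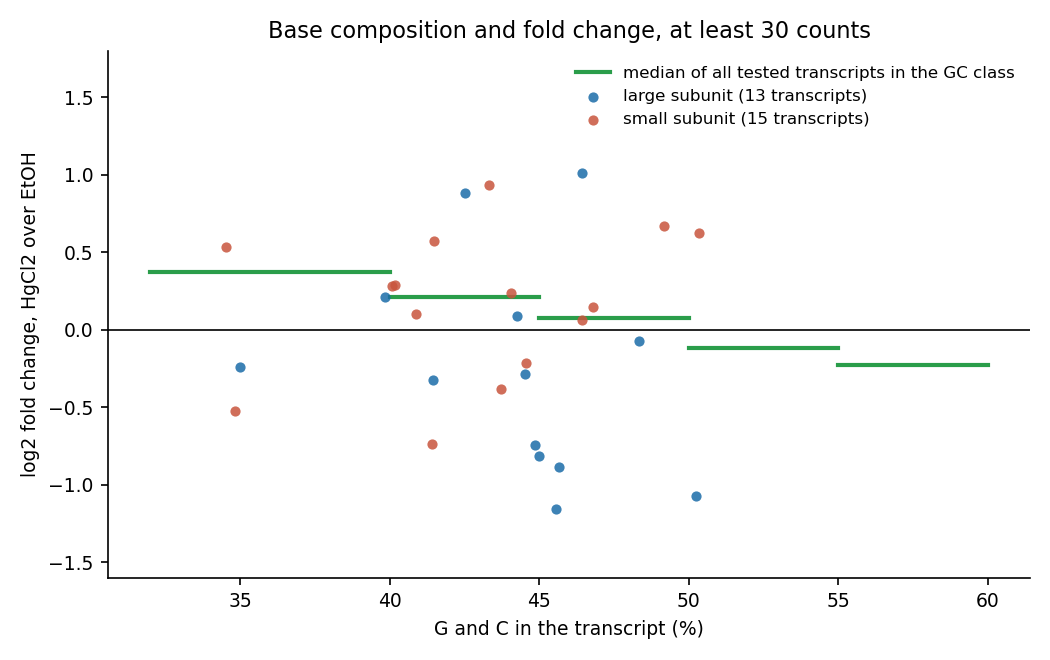
Log2 fold change, HgCl2 over EtOH, against the percentage of G and C for the 28 member transcripts with at least 30 counts (large subunit blue, small subunit red), with the median of all tested transcripts of each class as green lines, where the outer classes run to lower and higher percentages than drawn. The green lines descend from 0.37 to -0.23, and most of the blue points lie below the line of their class.

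Other parts of mitochondrial translation were set beside the members. The 14 mitochondrial ribosomal protein genes of the study's account, which were picked on these samples and so are not independent evidence, had 27 tested transcripts, of which 11 were called higher and 5 lower, 59.3% in all, with a median of 0.61. The largest of them in counts was MRPL19, at 2153 and 2222 counts in EtOH and 3029 and 3020 in HgCl2, or 0.61 (0.53 to 0.69). All tested transcripts had 15.5% called higher and 17.0% lower, 32.5% in all, and a median of -0.21. Mitochondrial ribosomal proteins with other symbols had 0 of 12 transcripts called higher and 3 lower, 25.0% in all, with a median of -0.45. Among them CHCHD1, a small-subunit protein, had 99 and 109 counts in EtOH and 37 and 35 in HgCl2 in ENST00000372837, at -1.38 (-1.98 to -0.83); its other coding transcript, ENST00000372833, had 27 and 31 counts against 43 and 43, at 0.71 (-0.001 to 1.44). PTCD3, a small-subunit protein with pentatricopeptide repeats, had 887 and 930 counts against 537 and 517 in its most counted transcript, at -0.64 (-0.80 to -0.49).

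Factors that build the ribosome had 3 of 31 tested transcripts called higher and 6 lower. GTPBP10, a GTPase in the assembly of the large subunit, had 20 and 27 counts in EtOH and 49 and 66 in HgCl2, at 1.43 (0.72 to 2.19). NOA1, a GTPase of mitochondrial ribosome assembly and the most counted of the list, had 474 and 467 against 269 and 261, at -0.69 (-0.91 to -0.47). Factors of mitochondrial translation had 4 of 17 transcripts called higher and 2 lower. MRRF, which helps to release ribosomes after termination, had 130 and 136 counts in EtOH and 256 and 238 in HgCl2, at 1.04 (0.73 to 1.35). A retained intron of GFM2, the other recycling factor, had 13 and 10 counts against 63 and 66, at 2.62 (1.71 to 3.68). These shares, 29.0% for assembly and 35.3% for translation factors, lie near the 32.5% of all tested transcripts. The lists differ in count and base composition, and the differences between them were not tested.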

How the data were processed

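Members, gene lists and tests were chosen with earlier results of these data known. According to the study's methods and the labels, the authors trimmed reads with Trim Galore, aligned to GRCh38 using STAR 2.5.4b and the Ensembl 98 annotation, and counted them per transcript with Rsubread, with options not given in the sources used here. They deposited raw counts per transcript, and FPKM values that they made from those counts with DESeq2 1.26.0; FPKM served here for the filter, for limma and to infer transcript lengths.

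Transcripts were joined to GENCODE 44, which held 223558 of the 227368 identifiers, with 99.8% of the counts. Its lengths matched those of the authors within 1% for 94.8% of counted transcripts. In 3 tested member transcripts, ENST00000519143, ENST00000475895 and ENST00000461916, they did not. Log2 fold changes came from edgeR 4.0.16 (glmQLFit, TMM, R 4.3.3), fitted to the 17547 transcripts whose mean FPKM exceeded 1 in a group. Intervals are 95% Clopper-Pearson intervals on mean counts, and a group at or under 3 counts was set to 3 counts for lower bounds. Because each group counts as 1 sample, the test of the plan gives no p-value. The edgeR step was tested on simulated data.

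Named were the 8 large- and 6 small-subunit genes with the most counts, called member transcripts averaging 30 counts or more in a group, of the called ones below that the 3 higher and 3 lower with the most counts, members at 0, and, from each other list, the most counted and called transcripts. Other members are named as chosen after their values were seen. Alternatives changed the filter, scaling, tool (DESeq2 1.42.0, limma 3.58.1 with a pseudocount of 1 or 0.1), replicate block and columns used. Columns with the same replicate number did not deviate together (correlation 0.017). Some items that the rules cover are not reported here.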

Additional observations from a re-analysis of the deposited data

How the results depend on the processing

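The main values were 3 member transcripts higher and 5 lower, and subunit medians relative to all tested transcripts of -0.46 (large) and 0.28 (small). Requiring at least 10 counts in every column gave 0 higher and 3 lower; no filter gave 5 higher, a small-subunit median of 0.50, a large-subunit median that turned to 0.26, and a difference of -0.24 where the main one was -0.73. Limma on log2(FPKM + 1) gave 1 lower, and with a pseudocount of 0.1 it gave 5 higher and 2 lower. Fold alone, without the interval, gave 17 lower, or near the 34.1% of all tested transcripts. Among alternatives chosen after seeing the data, the difference in small-subunit share of 7.88 points was 3.90 without MRPS10 and 6.49 with MRPS30 in the large subunit. That difference was not computed with the left-out genes of the study's account added. Leaving out each column in turn gave 2 to 4 higher, 5 to 7 lower, large-subunit medians of -0.64 to -0.13, small-subunit medians of 0.17 to 0.30 and differences of -0.94 to -0.42. With the replicate block, 3 were higher and 5 lower, and the difference between subunits was -0.73; the labels do not pair the columns. With MRPS30 in the large subunit, the difference was -0.39. The call for MRPL17 was lost under filterByExpr (0.94), the filter of 10 counts (0.84), total counts (0.96), limma (0.997), without EtOH replicate 2 (0.90) and without HgCl2 replicate 1 (0.94). MRPL51 ENST00000543164 fell short of 2-fold without the filter (-0.93), with limma (-0.84, -0.89), without EtOH replicate 2 (-0.92) and without HgCl2 replicate 1 (-0.91), and MRPL15 with limma (-0.81, -0.96). MRPL3 passed 2-fold without the filter (1.02) and with limma (1.03, 1.05). The causes were not tested. Depth is a limit for the 24 of 52 tested transcripts with fewer than 30 counts on average, and for the 16 counted genes with none tested.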

Other observations

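Copies of member genes elsewhere in the genome were counted separately. GENCODE 44 lists 61 pseudogenes of 29 members, and 11 of them had a count. They held 40.5 counts in EtOH and 58.5 in HgCl2 on average, beside 10566.5 and 10776.5 on the members. MRPS31P4, an unprocessed copy of MRPS31 that is transcribed, had 19 and 21 counts in EtOH and 45 and 45 in HgCl2, and held most of them in HgCl2. It lies on chromosome 13, as does MRPS31, whose short transcript was also higher in HgCl2; whether reads were divided between the copies was not tested. MRPS10P1 had 9 and 6 counts in EtOH and 0 and 1 in HgCl2, too few to bear on MRPS10.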
